A study of Arabidopsis thaliana with 23 samples.

Results

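This account concerns the mRNA of unstressed sos2-2 Arabidopsis seedlings set against that of wild-type seedlings on Murashige and Skoog (MS) medium. The members were the 5 mRNA libraries that the titles place in these groups, 2 of sos2-2 and 3 of the wild type (WT), out of 11 mRNA libraries and 23 libraries of all kinds. Whole seedlings of both genotypes were grown for 10 days at 22 °C in constant light on MS with 3% sucrose, after 2 days at 4 °C. The design text speaks of gl1, the name of a line with a lesion in the trichome regulator GL1, beside sos2-2. The labels do not say whether WT or sos2-2 carries gl1, what the lesion of the sos2-2 allele is, or how many seedlings went into a library. The remaining 6 mRNA libraries, 3 of sos2-2 and 3 of WT, came from seedlings kept in liquid MS that held 100 mM NaCl, for 12 hours. They entered the same fit and serve below as a second genotype comparison. It shares no library with the one on MS but shares its estimate of the spread.

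SOS2 is a protein kinase of the salt overly sensitive (SOS) pathway. The calcium sensor SOS3 binds and activates it, and the active kinase phosphorylates SOS1, a sodium/proton antiporter of the plasma membrane that moves sodium out of the cell. The title of the series links SOS2 with SERRATE (SE), a zinc-finger protein that helps the Dicer enzyme DCL1 cut microRNA precursors. The comparison on MS asks how the mutant's transcript levels differed before any salt was added.

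Values are TPM (transcript abundance scaled to a fixed total), summed from transcripts to genes, with plastid and mitochondrial genes in the total. Differences are in log2(TPM + 1), sos2-2 minus WT, which understates the change of low genes. Of 27655 genes, 16564 with a mean of at least 1 TPM over the 11 libraries were tested with limma. Genes with a Benjamini-Hochberg adjusted p under 0.05 are called, and rose and fell are used of those alone. In sos2-2 on MS 258 genes rose, which is 1.56% of those tested, and 204 fell, which is 1.23%. Together they made up 2.79% of the genes tested. All 258 and all 204 had groups that did not overlap, a pattern that 39.6% of the tested genes showed. With each library centred on its median gene, 635 genes rose (3.83%) and 1070 fell (6.46%), 10.3% in all. Most calls needed both mutant libraries: 10 genes were called without replicate 1 of sos2-2 and 6 without replicate 2. Leaving out replicate 1, 2 or 3 of WT on MS left 155, 87 and 81 calls. The NaCl libraries act through the shared spread and the filter, and the count was 1432 without replicate 1 of WT in NaCl, 819 without its replicate 3 and 695 without replicate 1 of sos2-2 in NaCl. Nothing in the labels states that replicates came from separate cultures. The p-values therefore cover only how much these libraries vary, which may be technical. In whole seedlings, fewer cells of a type and less RNA per cell cannot be told apart.

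The mutated gene itself was transcribed. SOS2 (AT5G35410, chromosome 5, 13634399 to 13638375, TAIR10.1) stood at 1.36 and 1.24 TPM in sos2-2, against 1.17, 0.880 and 1.21 TPM in WT. The 2 mutant libraries were slightly above all 3 WT libraries, and the difference of 0.15 ± 0.18 (SE) was not called (adjusted p = 0.695). The level therefore does not check the genotype labels. SE stood at 14.0 and 11.6 TPM in sos2-2, against 16.1, 13.8 and 17.9 TPM in WT, with overlapping groups (adjusted p = 0.504). GL1 was under the filter, at 0.626 and 0.519 TPM in sos2-2 and 0.317, 0.356 and 0.374 TPM in WT.

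SOS1 stood at 1.91 and 1.62 TPM in sos2-2, against 2.12, 1.37 and 1.89 TPM in WT, and SOS3 at 1.86 and 1.46 TPM in sos2-2, against 1.4998, 1.496 and 1.60 TPM in WT. Neither was called (adjusted p = 0.988 and 0.873), and the sign of the difference changed with the scaling for SOS1. HKT1, a sodium transporter that unloads sodium from the xylem, was under the filter at 0.444 and 0.770 TPM in sos2-2 and 0.801, 0.859 and 0.754 TPM in WT. These 3 genes were picked for their place in the pathway and not by the rule for named genes. Of 18 tested genes of the SOS pathway and sodium transport, 1 fell and none rose, while 1.23% of all tested genes fell and 1.56% rose. The member that fell was NHX1, a sodium/proton exchanger of the vacuole, at 14.6 and 10.8 TPM in sos2-2, against 23.7, 23.55 and 26.7 TPM in WT. Both mutant libraries lay below every WT library, with a log2 change of −0.92 ± 0.23 (adjusted p = 0.0445). In NaCl it stood at 17.5, 15.8 and 25.1 TPM in sos2-2 and at 25.8, 28.0 and 21.4 TPM in WT, with overlapping groups, which was −0.68 relative to the median gene (adjusted p = 0.00861 after centring).

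Part of the genes called on MS were called in the same direction in NaCl, and the share depended on the scaling. In NaCl the median gene was 0.32 higher in sos2-2 than in WT on the log2 scale, so differences in NaCl are given relative to it and calls after median centring. Of the 204 genes that fell on MS, 106 (52.0%) also fell in NaCl, where 5.65% of all tested genes fell. Of the 258 that rose on MS, 33 (12.8%) also rose in NaCl, against 4.96% of all tested genes. On values as deposited, 21 of the 204 fell in NaCl and 95 of the 258 rose there, against 0.404% and 18.9% of all genes. Of the 204, 191 lay below the median gene in NaCl, and of the 258, 180 lay above it. Across all 16564 genes the differences in both media had a Pearson r of 0.29 and a Spearman rho of 0.36, as a description over genes, which are not replicates.

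**Figure D1:**
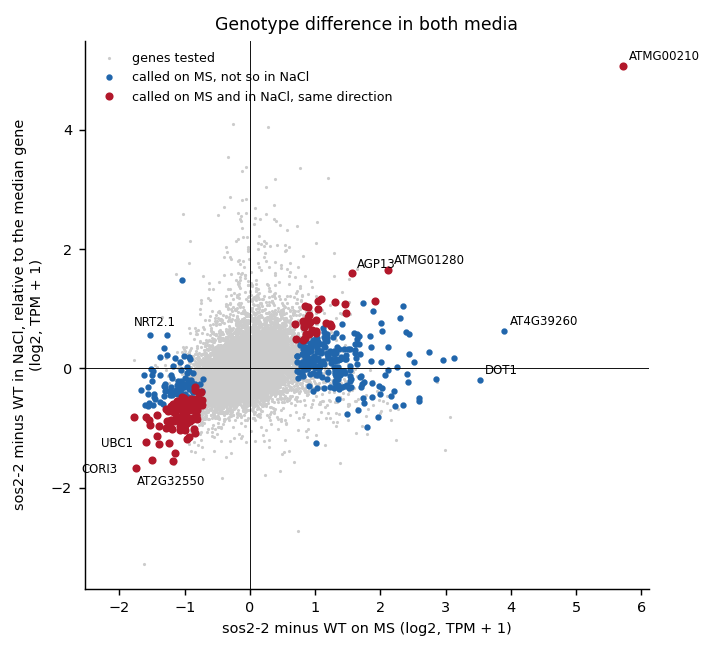
Genotype difference in both media. Each point is 1 of 16564 genes, with sos2-2 minus WT on MS on the x axis and in NaCl, relative to the median gene, on the y axis, both as log2(TPM + 1). Of the 462 genes called on MS, the 33 that rose and the 106 that fell in NaCl too, after median centring, are red. The red falls lie in the lower left, and DOT1, a large rise on MS, lies near 0 on the y axis.

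Genes that fell on MS and, after centring, in NaCl belonged to several processes. CORI3, a cystine lyase known as a jasmonate-induced gene, stood at 70.7 and 55.0 TPM in sos2-2, against 228, 168 and 248 TPM in WT, a change of −1.75 ± 0.29 (adjusted p = 0.00777). In NaCl it was at 317, 199 and 414 TPM in sos2-2, against 832, 837 and 626 TPM in WT. The mutant was below WT in every library of either medium.

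UBC1, a ubiquitin-conjugating enzyme known to act in histone H2B ubiquitination, stood at 15.2 and 14.4 TPM in sos2-2, against 47.4, 45.9 and 46.8 TPM in WT, and fell by 1.59 ± 0.23 (adjusted p = 0.00446). Its NaCl values were 13.4, 18.15 and 17.61 TPM in sos2-2 and 38.3, 32.8 and 24.6 TPM in WT. The groups did not overlap in either medium. UBC1 overlaps AT1G14390 on the other strand, which shares 24.8% of its 31-base words, and the sources used here do not state whether strand was used. HTA4, TCP3, ILR3, AT3G26510, FRO3, HCF106, IDH2, AT4G39960 and AT3G03920 are also listed with a gene on the other strand, but share fewer words. AT3G26510 shares 10.5% of its words with that gene. The others share 3.98% or less with all other genes, and HTA4 and AT3G03920 share 0%.

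Among 22 genes of the microRNA machinery 1 was called, against 2.79% of all tested genes. It was HESO1, a nucleotidyltransferase that adds uridines to unmethylated microRNAs. It stood at 10.1 and 6.58 TPM in sos2-2, against 18.5, 13.8 and 20.6 TPM in WT, a change of −0.9996 ± 0.26 at the edge of the threshold (adjusted p = 0.0499), and it shares 11.7% of its 31-base words with AT2G39750 on the other strand. The NaCl values were 9.17, 5.65 and 10.2 TPM in sos2-2, against 11.9, 17.1 and 13.3 TPM in WT. Again each mutant library was below each WT library. DCL1 stood at 6.30 and 5.13 TPM in sos2-2 and 3.06, 1.85 and 2.72 TPM in WT (adjusted p = 0.0536). HYL1, the double-stranded RNA binding partner of DCL1, and HEN1, the small RNA methyltransferase, were not called (adjusted p = 0.318 and 0.732). These 3 genes were picked for their role.

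AT2G32550, annotated as a Rcd1-like protein and named here after its values were seen, was almost undetected in the mutant. It stood at 0.104 and 0.372 TPM in sos2-2 on MS, against 2.197, 2.90 and 2.44 TPM in WT (change −1.51 ± 0.19, adjusted p = 0.00104). The NaCl libraries gave 0.414, 0.255 and 0.703 TPM in sos2-2, against 2.32, 2.56 and 2.16 TPM in WT. HCF106, a component of protein transport into thylakoids, and WAT1, an auxin exporter of the vacuole, were also chosen after their values were seen. HCF106 stood at 59.1 and 40.3 TPM in sos2-2, against 102, 90.6 and 122 TPM in WT, and WAT1 at 53.5 and 51.9 TPM in sos2-2, against 102, 97.7 and 104 TPM in WT. Both fell on MS (adjusted p = 0.0307 and 0.0453) and in NaCl (0.00158 and 0.00043 after centring).

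Of 21 tested nuclear photosynthesis genes, a list that doubles as shoot markers, 2 fell and none rose on MS, where 1.23% of all tested genes fell. Of the 21, 18 were below 0 and the median change was −0.42, while 56.0% of all tested genes were below 0 and their median was −0.05. LHCB4.1, a light-harvesting protein of photosystem II, stood at 432 and 470 TPM in sos2-2, against 1413, 1426 and 1118 TPM in WT, a fall of 1.54 ± 0.26 (adjusted p = 0.00942). In NaCl its values were 501, 427 and 560 TPM in sos2-2 and 1100, 745 and 549 TPM in WT, so that the groups overlapped there, though it fell relative to the median gene (adjusted p = 0.00887 after centring). RBCS1A, a small subunit of Rubisco, stood at 4046 and 3017 TPM in sos2-2, against 8438, 6947 and 9154 TPM in WT (adjusted p = 0.0449). It did not differ in NaCl beyond the spread (−0.11 relative to the median gene, adjusted p = 0.721 after centring).

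The markers together summed to 14325 and 14939 TPM in sos2-2, against 24515, 22558 and 24685 TPM in WT. Root and root hair markers summed to 48.5 and 34.2 TPM in sos2-2 and 53.7, 52.3 and 52.7 TPM in WT, with none of 13 tested members called. Both sums were lower in the 2 mutant libraries than in all WT libraries, but the single root markers were mixed. Of the 13, 5 were above 0, and the median was −0.11. Mutant values lay above all WT values for 4 and below them for 5, against 16.8% and 22.7% of all tested genes. The part of tissue makeup in the falls was not tested. All 11 seed storage and maturation genes were under the filter, with sums of 0.693 and 3.74 TPM in sos2-2 and 0.949, 0.377 and 1.26 TPM in WT.

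PSBTN, a small photosystem II subunit that was not on the list, fell by 1.55 ± 0.27, with 1803 and 1944 TPM in sos2-2, against 5836, 5371 and 5245 TPM in WT (adjusted p = 0.0101). Other genes among the 12 largest falls on MS were NOXY2 (3.65 and 3.08 TPM in sos2-2, against 15.2, 13.8 and 12.9 TPM in WT), the mitochondrial import subunit TOM7-2, the bHLH regulator ILR3, the arabinogalactan protein AGP20, the phytosulfokine precursor PSK5, AT3G26510, AT3G50350 and the histone H2A gene HTA4. Their changes lay between −1.78 and −1.55. NOXY2, ILR3 and PSK5 also fell in NaCl after centring (adjusted p = 0.0356, 0.036 and 0.0233). NOXY2 overlaps AT5G11640 on the same strand and shares 2.31% of its 31-base words with it. Of 28 genes on the abscisic acid and dehydration list 1 was called, against 2.79% of all tested genes. It was COR15A, a cold-induced chloroplast protein, at 2.03 and 12.7 TPM in sos2-2 and 16.4, 16.8 and 21.3 TPM in WT. The mutant libraries differed widely from each other, and both lay below WT (adjusted p = 0.0472). The change lay between −2.65 and −0.48 when 1 library was left out, and it was called under 10 of 23 alternatives.

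Of 45 tested targets of microRNAs 2 fell and none rose, while 1.23% of all tested genes fell and 1.56% rose. The count is too small to read as a result about the list. The median change was −0.30, and 18 had mutant values below all WT values, against 22.7% of all tested genes with that pattern. The pair that fell were TCP3 and TCP4, growth regulators of leaves that miR319 targets. TCP4 stood at 35.7 and 24.97 TPM in sos2-2, against 89.3, 58.3 and 77.5 TPM in WT (change −1.28 ± 0.28, adjusted p = 0.0252), and TCP3 at 32.8 and 21.3 TPM in sos2-2, against 83.2, 52.4 and 70.9 TPM in WT (adjusted p = 0.0445). TCP4 also fell in NaCl after centring (adjusted p = 0.00588), and TCP3 was not called there (0.208).

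Of 19 tested genes of the nitrate and ammonium list 2 fell and 1 rose, while 1.23% of all tested genes fell and 1.56% rose. NRT2.1, the main inducible high-affinity nitrate transporter of roots, stood at 1.26 and 1.34 TPM in sos2-2 on MS, against 5.95, 3.92 and 4.05 TPM in WT, a change of −1.28 ± 0.24 (adjusted p = 0.0155). In NaCl it was at 25.7, 31.2 and 35.5 TPM in sos2-2, against 19.0, 18.4 and 11.8 TPM in WT. The mutant was thus lower on MS and higher in NaCl, without overlap in either, though its level in NaCl was not called after centring (0.57 relative to the median gene, adjusted p = 0.0513). The difference between media was 1.77 relative to the median gene and was called on values as deposited (adjusted p = 0.000887), as for 2.04% of the tested genes, and after centring (0.00621), as for 0.749%. NRT2.1 shares 14.7% of its 31-base words with AT1G08100, which limits how surely its reads are assigned. NRT3.1, the partner protein that NRT2.1 needs, fell on MS, with 26.7 and 19.2 TPM in sos2-2, against 50.9, 42.8 and 47.1 TPM in WT (adjusted p = 0.0327), and was not called in NaCl after centring (0.398). HRS1, a MYB-like regulator of nitrate and phosphate signalling, rose to 17.7 and 19.2 TPM in sos2-2, against 11.5, 6.57 and 9.46 TPM in WT (adjusted p = 0.0445).

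Further single members of lists were called, where 2.79% of all tested genes were called. FRO3, a ferric reductase, fell to 4.53 and 3.53 TPM in sos2-2, against 8.74, 6.04 and 9.56 TPM in WT (adjusted p = 0.0469), 1 of 10 tested iron genes. PCNA1, the sliding clamp of DNA replication, fell to 9.98 and 8.31 TPM in sos2-2, against 19.2, 20.3 and 22.0 TPM in WT (adjusted p = 0.0445), and all 11 tested cell cycle genes were below 0 with a median of −0.28. ELF4, a member of the evening complex of the circadian clock, rose to 4.84 and 4.30 TPM in sos2-2, against 0.823, 0.248 and 0.518 TPM in WT (change 1.88 ± 0.39, adjusted p = 0.0235). It was the 1 gene called of 15 clock genes.

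In 14 lists with tested members no gene was called on MS. All 8 aliphatic glucosinolate genes lay below 0 (median −0.24), as did all 5 heat shock genes (median −0.29). Of 12 jasmonate genes 9 lay below 0, and their median of −0.52 was the lowest of any list. LOX2, the lipoxygenase of jasmonate synthesis, stood at 76.4 and 84.3 TPM in sos2-2, against 171, 109 and 172 TPM in WT (adjusted p = 0.0722), and AOC2 at 46.6 and 44.4 TPM in sos2-2, against 88.4, 72.7 and 68.3 TPM in WT (adjusted p = 0.269). In the osmolyte list, PRODH1, the enzyme that starts proline breakdown, stood at 24.9 and 32.3 TPM in sos2-2 and 49.3, 52.3 and 48.7 TPM in WT (adjusted p = 0.0741), and MIPS1 overlapped between the groups.

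The salicylate list was the one with a median above 0 beside the microRNA machinery (0.06 and 0.04). Its marker PR1 stood at 32.8 and 26.8 TPM in sos2-2, against 4.22, 16.1 and 9.71 TPM in WT (adjusted p = 0.0863), while PCC1 was at 28.3 and 25.8 TPM in sos2-2 and 56.2, 30.9 and 36.4 TPM in WT (0.499). SCR, a root patterning regulator and the root marker with the largest change, stood at 8.62 and 5.59 TPM in sos2-2, against 15.3, 15.1 and 14.7 TPM in WT (0.0527), and PRP3 overlapped. The housekeeping genes EF1A and UBQ10 overlapped between the groups, with adjusted p of 0.333 and 0.669. The pairs named for the remaining lists were not called either. They were TCH3 and RAP2.4 (touch, cold and drought), SQD1 and PHT1;1 (phosphate), APR2 and APR1 (sulfate), TTG1 and EGL3 (trichomes), WRKY33 and CYP79B2 (early defence), CYP83A1 and MAM1 (glucosinolates), CAT3 and CAT2 (oxidative stress), HSP70-4 and HSP90.1 (heat shock), and CHS and DFR (flavonoids), with adjusted p between 0.0731 for CAT2 and 0.992 for EGL3.

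**Figure D2:**
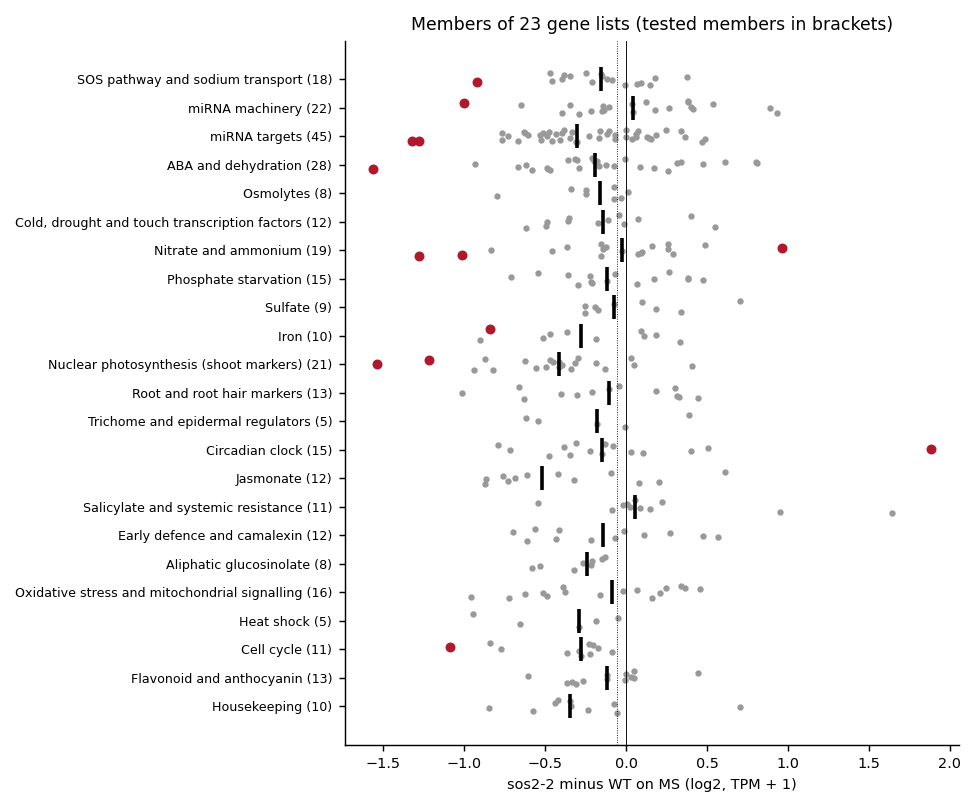
Members of 23 gene lists on MS. Each point is 1 tested gene, with sos2-2 minus WT in log2(TPM + 1) on the x axis. Red points are called, black bars are list medians, and the dotted line is the median of all tested genes (−0.05). The called members number 2 at most in any direction, and ELF4 at 1.88 is the farthest to the right.

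Among the rises, a small set was found in both media. AT2G04795, an uncharacterized gene on chromosome 2 (1682856 to 1683614), stood at 8.18 and 8.07 TPM in sos2-2, against 1.64, 1.18 and 1.44 TPM in WT, a rise of 1.92 ± 0.23 (adjusted p = 0.000702). In NaCl it was at 5.68, 3.26 and 2.75 TPM in sos2-2, against 0.837, 0.456 and 0.958 TPM in WT. It was called on MS under each of the 22 alternatives in which it could be tested.

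AGP13, an arabinogalactan protein of the cell surface, stood at 13.8 and 14.6 TPM in sos2-2, against 5.21, 4.095 and 3.34 TPM in WT (change 1.56 ± 0.25, adjusted p = 0.00777), and at 8.80, 15.2 and 12.0 TPM in sos2-2 in NaCl, against 3.56, 1.802 and 2.01 TPM in WT. TDT, the dicarboxylate (malate) transporter of the vacuole, stood at 28.5 and 22.8 TPM in sos2-2, against 10.5, 8.39 and 7.35 TPM in WT (change 1.46 ± 0.24, adjusted p = 0.00777). Its NaCl values were 21.5, 15.2 and 11.9 TPM in sos2-2 and 5.33, 5.14 and 5.51 TPM in WT. For both genes every mutant library lay above every WT library in either medium.

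AT3G45930, annotated as a histone superfamily protein, stood at 16.6 and 16.0 TPM in sos2-2, against 6.94, 5.35 and 5.83 TPM in WT (change 1.303 ± 0.22, adjusted p = 0.00942). It shares 32.7% of its 31-base words with other genes, mainly AT3G46320, so its level is uncertain. ERF-1, an ethylene response factor, rose to 6.13 and 7.54 TPM in sos2-2, against 1.22, 1.45 and 1.37 TPM in WT (adjusted p = 0.00881), and AT2G16586 to 994 and 1340 TPM in sos2-2, against 313, 207 and 178 TPM in WT (adjusted p = 0.00446). Both were higher in NaCl on values as deposited but not called there after centring (adjusted p = 0.0763 and 0.108). AT2G16586 shares 17.0% of its 31-base words with AT2G01008, so its level is uncertain too. CIPK12, a kinase of the same family as SOS2, and IDH2, a mitochondrial isocitrate dehydrogenase subunit, were chosen after their values were seen. CIPK12 stood at 26.2 and 24.9 TPM in sos2-2, against 11.3, 11.8 and 13.5 TPM in WT, and IDH2 at 11.7 and 9.58 TPM in sos2-2, against 5.93, 5.04 and 4.81 TPM in WT. Both rose on MS (adjusted p = 0.0235 and 0.032) and in NaCl (0.0445 and 0.00924 after centring).

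**Figure D3:**
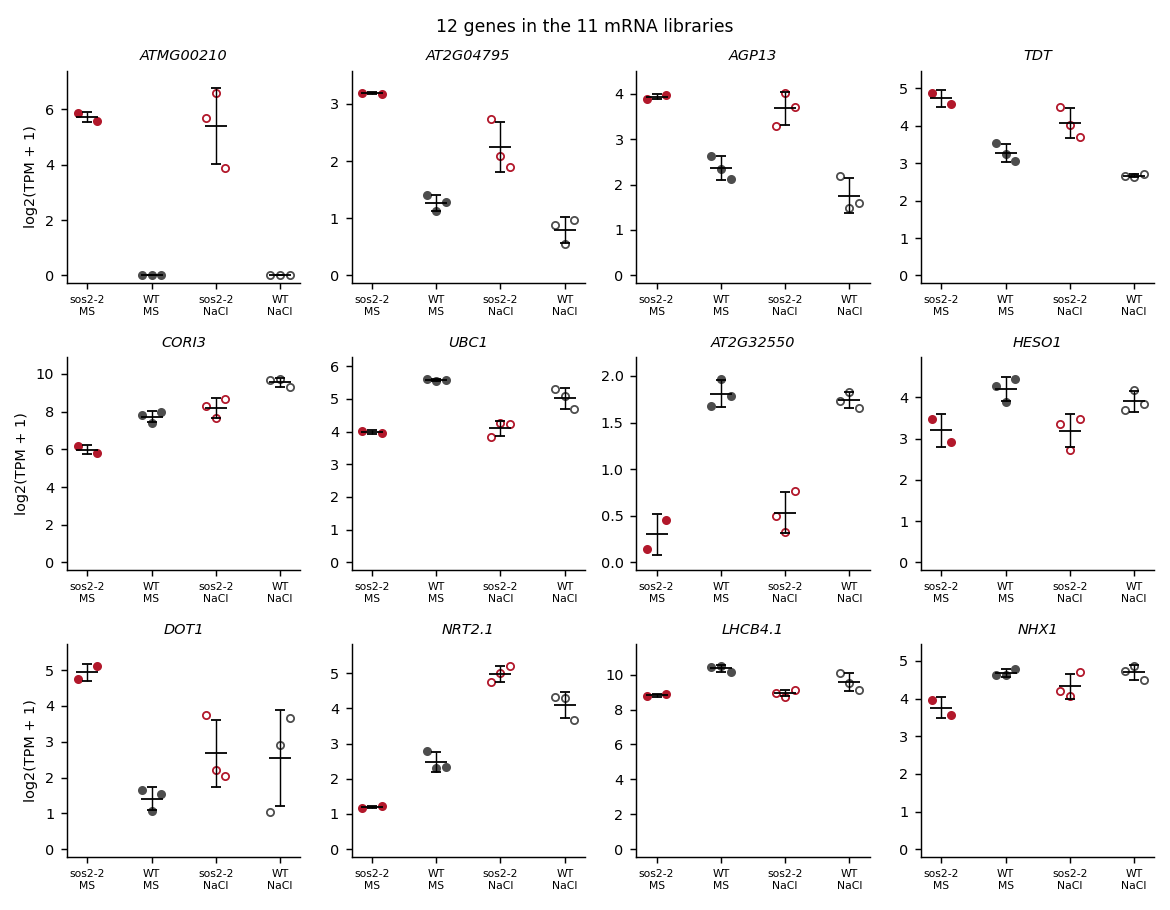
Levels of 12 genes in the 11 mRNA libraries. The y axes show log2(TPM + 1), points are libraries (sos2-2 red, WT grey, MS filled, NaCl open), and bars give the mean and SD of each group (n = 2 for sos2-2 on MS, 3 elsewhere). In the upper 8 panels the mutant lies apart from WT in both media, as for AGP13 with 13.8 and 14.6 TPM on MS, while DOT1 and NRT2.1 in the bottom row do not keep the difference they had on MS.

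The largest rises of nuclear genes on MS were not called in NaCl after centring. AT4G39260, a glycine-rich RNA-binding protein under cold and circadian control, stood at 134 and 157 TPM in sos2-2, against 14.1, 4.05 and 11.4 TPM in WT (change 3.90 ± 0.71, adjusted p = 0.0126). DOT1, a glycine-rich protein known from leaf vein patterning, stood at 26.1 and 33.4 TPM in sos2-2, against 2.12, 1.09 and 1.90 TPM in WT (change 3.52 ± 0.54, adjusted p = 0.00669). GRP-3, a glycine-rich cell wall protein, stood at 1612 and 2123 TPM in sos2-2, against 309, 181 and 302 TPM in WT (change 2.85 ± 0.57, adjusted p = 0.0207). The difference between media was not called for AT4G39260 and GRP-3 (adjusted p = 0.107 and 0.0781, as deposited). For DOT1 it was called on values as deposited (0.0173) and not after centring (0.141). These rises are therefore not shown to be particular to MS. A group was formed, after the values were seen, of genes whose annotated product holds the term glycine-rich in lower case. Of 33 tested, 13 rose and none fell, with a median of 1.22, while 1.56% of all tested genes rose. It had the highest median among several groups formed by product. Of the others, 14 of 193 RNA-binding products rose and 6 fell, and 2 of 308 ribosomal proteins rose and 4 fell. Rises and falls were 0 and 2 of 52 for light harvesting or photosystem, 2 and 3 of 36 for arabinogalactan and 3 and 1 of 83 for histone. They were 2 and 1 of 68 for DnaJ and 0 and 2 of 8 for outer membrane translocases. The glycine-rich group holds GRP-3 but not DOT1 or AT4G39260, whose products are written otherwise, so it does not cover all glycine-rich proteins.

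The base makeup of the called genes was not used by the comparison and is given as a description. Glycine codons begin with GG, and purines (A and G) made up 61.0% of the DOT1 transcript, 54.5% of that of GRP-3 and 50.9% of that of AT4G39260, which lies at the median of all tested nuclear genes. The median was 53.3% over the 235 nuclear genes that rose and 48.2% over the 200 that fell, against 50.9% over all tested nuclear genes. As examples, the middle 90 bases of the longest coding exon are given for 3 genes that rose and 3 that fell. They are in the coding direction, from the RefSeq sequence of TAIR10.1, with every purine in capitals. The risen genes are the largest rises among the glycine-rich proteins, and the fallen genes are those of the 12 largest falls with the lowest, next lowest and highest purine share in that window, so they show the range.
DOT1, chr2:15165807-15165896, plus strand: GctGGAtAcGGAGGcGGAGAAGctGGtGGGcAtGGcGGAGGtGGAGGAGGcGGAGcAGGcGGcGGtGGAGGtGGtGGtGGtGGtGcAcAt
GRP-3, chr2:2026658-2026747, plus strand: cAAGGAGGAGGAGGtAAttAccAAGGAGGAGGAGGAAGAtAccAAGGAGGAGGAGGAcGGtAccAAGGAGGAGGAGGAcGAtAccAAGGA
AT4G39260, chr4:18274322-18274411, minus strand: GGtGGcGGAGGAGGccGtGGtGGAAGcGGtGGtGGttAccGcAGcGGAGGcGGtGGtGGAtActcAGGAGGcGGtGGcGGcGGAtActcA
AGP20, chr3:22810527-22810616, minus strand: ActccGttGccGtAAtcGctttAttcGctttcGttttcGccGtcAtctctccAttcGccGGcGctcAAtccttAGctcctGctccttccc
PSK5, chr5:26351606-26351695, plus strand: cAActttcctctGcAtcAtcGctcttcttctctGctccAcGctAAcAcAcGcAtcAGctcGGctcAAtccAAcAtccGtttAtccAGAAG
COR15A, chr2:17711309-17711398, minus strand: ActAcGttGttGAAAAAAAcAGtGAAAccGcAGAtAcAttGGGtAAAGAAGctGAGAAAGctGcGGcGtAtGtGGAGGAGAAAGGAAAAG
The window held 72.2% purines in DOT1, 81.1% in GRP-3 and 66.7% in AT4G39260, against 25.6% in AGP20, 34.4% in PSK5 and 71.1% in COR15A. Other windows among the 12 largest rises ranged from 45.6% in EMB3120, with 52.2% in AT1G80130, to 70% in AT3G03920. The 3 risen genes shown therefore do not give the range of the rises.

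The same feature was then described for each library. This used the same levels, the called genes included, so it is no separate evidence. A purine score was taken for each library as Spearman's rho, over nuclear genes, between the purine share of the transcript and the deviation of the gene's log2 level from its mean. It was 0.20 and 0.25 in sos2-2 on MS, against −0.25, −0.40 and −0.09 in WT on MS. Among the NaCl libraries it was 0.25, −0.19 and 0.04 in sos2-2 and −0.32, 0.20 and 0.34 in WT. The score thus separated the genotypes on MS and not in NaCl. In the same NaCl libraries GRP-3 stood at 2361, 706 and 579 TPM in sos2-2 and at 320, 1405 and 1602 TPM in WT, with overlapping groups. With the score as a covariate, chosen after seeing the data, 70 genes (0.423%) were called on MS, 35 of them among the 462. Of the 258 rises 28 and of the 204 falls 7 were still called. DOT1 was among them with a log2 change of 1.90 (adjusted p = 0.00654), and GRP-3 and AT4G39260 were not (0.16 and 0.0714). AT2G04795, AGP13, TDT, AT3G45930, CORI3, UBC1, HESO1 and AT2G32550 were also still called, and NHX1, LHCB4.1, TCP4 and NRT2.1 were not (0.178, 0.0773, 0.135 and 0.126). Also lost were CIPK12, IDH2, WAT1 and HCF106 (0.207, 0.215, 0.207 and 0.0664). So were ERF-1, ELF4, PSBTN, RBCS1A, TCP3, PCNA1 and HRS1 (0.0866 to 0.46). Of the other falls, HTA4 and AT3G50350 were kept (0.0303 and 0.0351). NOXY2, TOM7-2, ILR3, AT3G26510, COR15A, AGP20, PSK5, NRT3.1 and FRO3 were lost (0.0614 to 0.311). With the trend of each library over purine share and length removed from the nuclear genes, 1809 of them (11.1%) were called, among them 395 of the 462. Of the genes just named as lost, GRP-3 had a change of 2.74 there, AT4G39260 3.96, NHX1 −0.69, LHCB4.1 −1.33, TCP4 −1.02 and NRT2.1 −1.11, and all were called (adjusted p 0.00657 to 0.0334). The other genes just named as lost were called there too (adjusted p 0.00657 to 0.0446). The score separates the MS groups completely, and the 2 ways of allowing for it gave different sets of calls. For the score the exact two-sided permutation test gave p = 0.2, the smallest that 2 libraries against 3 can give.

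**Figure D4:**
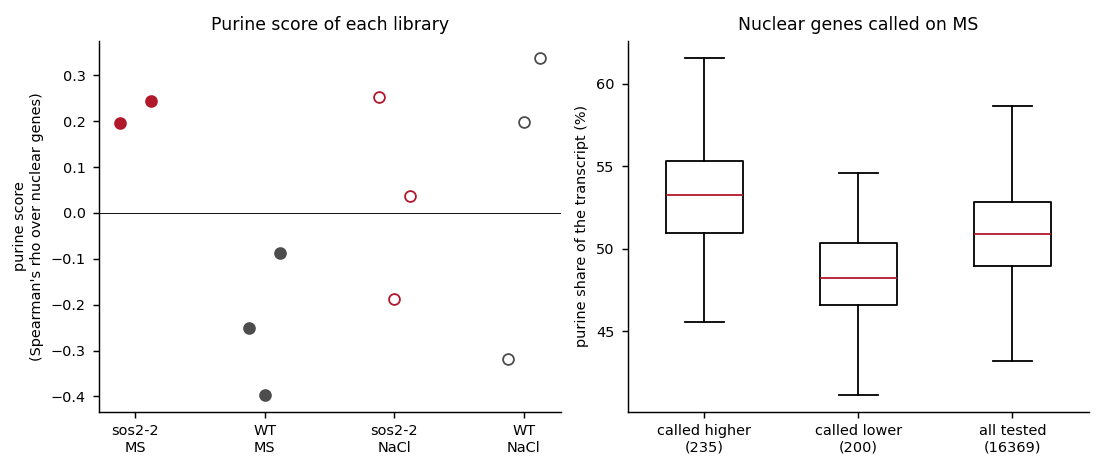
Purine content on MS and in NaCl. On the left, the y axis is the purine score of each library (Spearman's rho over nuclear genes) by group. On the right, boxes give the median and quartiles of the purine share of transcripts (%) and whiskers reach to the last value within 1.5 box lengths. The 2 sos2-2 libraries on MS lie above all 3 WT libraries on MS, and the genes that rose have a median of 53.3%, against 48.2% for those that fell.

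Other genes among the 12 largest rises were not called in NaCl after centring. They were AT1G80130, AT2G32690 (glycine-rich protein 23), EMB3120, AT1G47970 (annotated as nucleolin), AT4G39960 (a DnaJ chaperone), NSP5 (a nitrile specifier protein of glucosinolate breakdown), AT3G03920 (a Gar1 protein of small nucleolar ribonucleoproteins) and AT1G58983. Their changes ranged from 2.43 to 3.12, and none was still called with the covariate (adjusted p 0.14 to 0.695). For none of them was the difference between media called (adjusted p 0.1 to 0.189, as deposited). AT1G58983, a ribosomal protein S5 gene, shares all of its 31-base words with AT1G58684, so its level is uncertain.

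Mitochondrial transcripts held the gene with the widest gap. ATMG00210, an identifier that the files and the annotation used here do not name, stood at 56.4 and 47.2 TPM in sos2-2 on MS and was listed at 0 in all 3 WT libraries (adjusted p = 5.13e-06). In NaCl it stood at 50.6, 95.9 and 13.8 TPM in sos2-2 and was again listed at 0 in all 3 WT libraries. Mitochondrial reads can be assigned to nuclear copies, as described below, so a listed 0 does not show that WT lacked the transcript. Of the genes with at least 2 TPM in every library of a genotype on MS and at most 0.1 TPM in every library of the other, ATMG00210 was 1 of 2. The other was AT5G27247 at 2.33 and 3.80 TPM in sos2-2, listed at 0 in WT on MS but at 7.84 TPM in replicate 3 of WT in NaCl, and it was not called (adjusted p = 0.103). ATMG01280 stood at 48.6 and 34.2 TPM in sos2-2, against 10.4, 10.8 and 5.69 TPM in WT (change 2.12 ± 0.40, adjusted p = 0.0155), and at 30.8, 74.4 and 17.56 TPM in sos2-2 in NaCl, against 7.36, 8.62 and 8.10 TPM in WT.

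In all, 10 of 107 tested mitochondrial genes rose and 2, whose values are identical in every library and may be 1 feature under both names, fell, and 13 of 88 plastid genes rose and 2 fell, while 1.56% of all tested genes rose and 1.23% fell. The median changes were 0.13 for mitochondrial and 0.21 for plastid genes. Mitochondrial genes held 1.66% and 1.42% of all TPM in sos2-2, against 1.33%, 1.07% and 1.13% in WT, and the groups did not overlap. Plastid genes held 68.6% and 72.9% in sos2-2, against 65.4%, 71.5% and 67.9% in WT, a mean of 70.8 ± 3.08% (SD, n = 2) against 68.3 ± 3.08% (SD, n = 3). The exact two-sided permutation test gave p = 0.4 for the plastid share and 0.2 for the mitochondrial share, and 2 libraries against 3 cannot go below 0.2.

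Mitochondrial reads can also be assigned to the nucleus, because a stretch of chromosome 2 carries a copy of much of the mitochondrial genome. Of the tested nuclear genes, 76 had at least 80% of their 31-base words in the mitochondrial sequence of the reference, 75 of them on chromosome 2. In sos2-2 5 of the 76 rose and 1 fell, against the same 1.56% and 1.23% of all tested genes, with a median of 0.16. AT2G07725 (chromosome 2, 3447398 to 3449059), a ribosomal L5 protein gene found whole in the mitochondrial genome, stood at 348 and 279 TPM in sos2-2, against 171, 135 and 155 TPM in WT (change 1.02 ± 0.23, adjusted p = 0.0307). In NaCl it was at 324, 222 and 252 TPM in sos2-2, against 166, 194 and 160 TPM in WT. Summed with ATMG00210, it came on MS to 404 and 326 TPM in sos2-2, against 171, 135 and 155 TPM in WT. AT2G07751, a chain 3 protein of NADH:ubiquinone oxidoreductase, stood at 194 and 208 TPM in sos2-2, against 77.4, 62.8 and 55.6 TPM in WT (adjusted p = 0.00777), and AT2G07773, a cytochrome b gene, rose too (0.00652). From which genome the reads of these genes came cannot be told apart, and their levels are uncertain, as is that of ATMG00210.

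**Figure D5:**
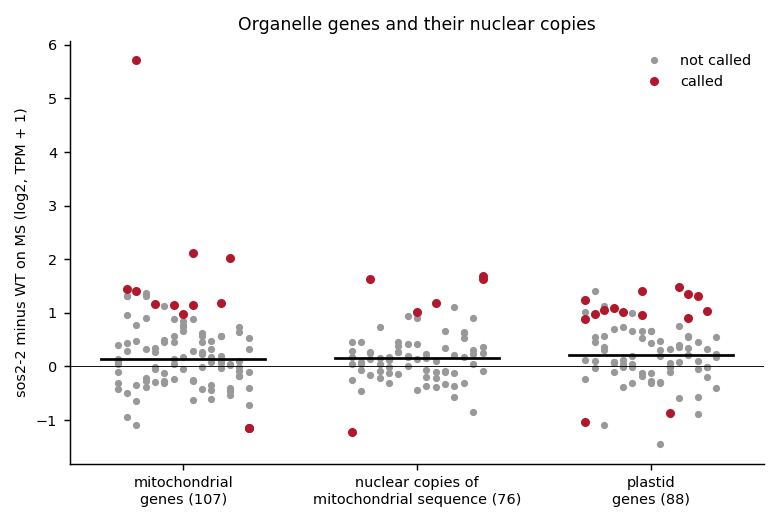
Organelle genes and nuclear copies of mitochondrial sequence on MS. Each point is 1 tested gene with sos2-2 minus WT in log2(TPM + 1) on the y axis, red where called, and black lines are medians. In each of the 3 sets more genes rose than fell (10 and 2, 5 and 1, 13 and 2), around medians of 0.13, 0.16 and 0.21. The highest point, ATMG00210, was listed at 0 in WT, so its height depends on the added 1.

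Short promoter motifs were counted as a description, with no test. In the 300 bases from 250 before to 50 after the annotated start, searched on both strands, the G-box CACGTG was found in 11.5% of the 235 nuclear genes that rose and 11.5% of the 200 that fell, against 8.75% of all tested nuclear genes. The abscisic acid response core ACGTG was found in 27.7% and 26.5%, against 27.6%, and every G-box holds it. The phosphate element P1BS (GNATATNC) was found in 5.11% of those that rose and 10% of those that fell, against 6.22%. The other 7 motifs searched were the DRE core CCGAC, the W-box core TTGAC, the GCC-box GCCGCC, the evening element core AATATCT, the heat shock element GAANNTTC, the telo-box core ACCCTA and the TCP site GGNCCCAC. Of these, the TCP site was the rarest, in 0.426% of the genes that rose and in none of the 200 that fell, against 1.72% of all tested nuclear genes. A match is a description of these letters and not a binding site.

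The called genes were spread over the genome. Between 1.05% and 1.99% of the tested genes of a nuclear chromosome rose and between 1.08% and 1.3% fell, with the highest share of rises on chromosome 2. Within 2 Mb of SOS2 on chromosome 5, 2 of 169 tested genes rose and 2 fell, against 1.56% and 1.23% of all tested genes.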

How the data were processed

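The authors deposited mRNA values as TPM per transcript. The submitters' processing notes name kallisto 0.46.2, sleuth 0.30.0 and the build TAIR10, without the role of each tool or the strand setting. The 48359 transcripts of a column sum to 1000000. TPM keeps no depth, so the depth is unknown. A fixed total means that a larger organelle share lowers every other gene. The small RNA files were not used here.

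Transcripts were summed to 27655 genes; all 27445 nuclear loci matched the TAIR10.1 RefSeq annotation, which gave symbols, coordinates and sequences. Genes with a mean of at least 1 TPM were kept (16369 nuclear, 88 plastid, 107 mitochondrial). A single limma 3.58.1 fit (R 4.3.3) with an intensity trend on log2(TPM + 1) held 4 groups and 11 libraries and gave the genotype difference on MS, in NaCl and their difference, adjusted by Benjamini-Hochberg over all genes. On simulated data with these groups and 16564 genes, 45 of 100 genes changed by 1 log2 unit and 97 of 100 changed by 2 were called, with 10 false calls. The simulation drew independent noise for each gene and changed only genes well above the filter. It held no difference shared by many genes of a library, such as the purine score, so its figures do not carry over to the real calls.

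Groups came from sample titles. Alternatives covered the pseudocount, filter, scaling, covariates, weights, a replicate block and each library left out. Named genes were SOS2, SE and GL1, the 12 largest rises and falls among called genes with groups apart, up to 4 called members of each of 24 lists (or the 2 with the highest mean), 10 genes called the same way in both media, and genes off in 1 genotype; others are said to be chosen otherwise. Comparisons of shared sequence used words of 31 bases of the longest transcript, and the identical pair of mitochondrial genes was found at a relative tolerance of 1e-04. The members and lists were chosen with earlier results of these data known.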

Additional observations from a re-analysis of the deposited data

Results flagged for a closer look

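For 8 named genes the genotype difference itself differed between the media: the test of the difference in NaCl minus that on MS was called (limma, Benjamini-Hochberg adjusted over 16564 genes). Values are log2 and relative to the median gene (0.39 in this difference), and each p is from values as deposited unless said to be centred. NRT2.1 had 1.77 (adjusted p = 0.000887) and NRT3.1 1.16 (0.0126), both lower in sos2-2 on MS. HTA4, a histone H2A gene, had 1.44 (0.00311): it stood at 1.08 and 1.33 TPM in sos2-2 on MS, against 6.28, 5.60 and 5.49 TPM in WT, and at 2.73, 3.52 and 4.03 TPM in sos2-2 in NaCl, against 3.91, 3.26 and 1.64 TPM in WT. AT3G50350 had 1.18 (0.0154), with 4.75 and 4.14 TPM in sos2-2 on MS, against 18.3, 14.1 and 13.1 TPM in WT.

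PRODH1 had 1.37 (0.00553) and stood in NaCl at 32.5, 34.5 and 43.1 TPM in sos2-2, against 22.0, 20.5 and 13.4 TPM in WT. PHT1;1, a phosphate transporter, had 1.23 (0.00953), with 32.4, 45.0 and 43.6 TPM in sos2-2 in NaCl, against 16.6, 18.7 and 11.7 TPM in WT; it shares 49.9% of its 31-base words with other genes, mainly AT5G43370. WRKY33, a defence transcription factor, had 1.69 (0.0173), and DOT1 had −3.78 (0.0173). With libraries centred on their median the test was no longer called for WRKY33 (0.154) and DOT1 (0.141), and it was for the other 6 (0.00621 to 0.0439).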

How the results depend on the processing

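The count of 462 genes called on MS was 12 with no filter (3866 genes at an unadjusted p under 0.05), 1705 after median centring, 1432 with nuclear genes rescaled, 1809 with the purine and length trend removed, 2373 with array weights (whose estimation did not reach its tolerance), 1903 with the 5 MS libraries alone and 70 with the purine score as a covariate, an alternative added after the data were seen. Leaving out a library gave 6 to 1432. In NaCl 3205 genes were called, 1637 with a mean of at least 5 TPM, 1757 centred, 1786 rescaled, 2045 with the trend removed, 1003 with weights and 1118 to 5570 with a library left out. For the difference between media 338 were called, 145 with at least 5 TPM, 124 centred, 143 rescaled, 117 with the trend removed, 198 with the covariate and 128 to 3559 with a library left out. Genes off in 1 genotype numbered 2, with 1 among genes of at least 5 TPM and 3 to 11 with a library left out. The plastid share differed by 0.29 to 4.64 percentage points with a library left out.

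Deviations of same-numbered libraries from their group means had r = 0.16 and 0.17, over 2 pairs, too few to take the numbers as pairs. With a replicate block 340 genes were called on MS, 310 of them among the 462.

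The 53 named genes called on MS kept their sign in all 1209 refits and were called in 908. ATMG00210 and AT2G04795 were called in every refit that held them; UBC1 was lost without either mutant library, as were most others. Reversed values, all of genes not called, were: with the covariate SOS2 −0.019, RAP2.4 0.14, APR1 −0.052, TTG1 0.26, AOC2 0.19, CHS 0.20, DFR 0.18, SOS1 0.12 and SOS3 −0.00078; rescaled MIPS1 0.061, TCH3 0.10, EGL3 0.13, HSP90.1 0.081, DFR 0.0087 and SOS1 0.11; centred EGL3 0.023 and SOS1 0.021; with the block TCH3 0.010, EGL3 0.056 and HSP90.1 0.045; TTG1 0.10 with the trend removed and EGL3 0.0078 at a pseudocount of 0.1. Leaving out a library gave MIPS1 −0.18 to 0.0029, TCH3 −0.28 to 0.19, PRP3 −0.70 to 0.10, EGL3 −0.23 to 0.13, HSP90.1 −0.29 to 0.20, DFR −0.84 to 0.60, SOS1 −0.12 to 0.078, SOS3 −0.040 to 0.18 and HEN1 −0.31 to 0.014. The cause was not tested.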
